A study of Mus musculus with 12 samples.

Results

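The insulin-like growth factor (IGF) genes described here are the ligands Igf1 and Igf2, the receptors Igf1r and Igf2r, and the secreted binding proteins Igfbp2, Igfbp3, Igfbp4, Igfbp5, Igfbp6 and Igfbp7. They were chosen by gene symbol, and all 10 were found among the 25203 genes of the deposited expression table. The table holds 12 RNA libraries in 4 groups of 3, from primary mouse stromal cells of the intestine that carry the Pdgfra-H2B-GFP reporter at a low level (Pdgfra-lo) and were kept in culture. Vehicle and TGFB1 are cultures labelled with no receptor deletion, given vehicle or transforming growth factor beta 1. Vehicle_Tgfbr2KO and TGFB1_KO are cultures labelled as knockout for Tgfbr2, the type II TGF-beta receptor, given vehicle or TGFB1. The series set the knockout cultures beside the intact ones to ask which effects of TGFB1 do not pass through this receptor. The TGFB1 dose, the time in culture with it, the age of the animals and the deleted stretch of Tgfbr2 are not given in the sources used here. Separate animals are not named for the libraries of a group, so all p-values measure the spread between these libraries, which may be technical.

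IGF1 and IGF2 are small secreted growth factors that act through the tyrosine kinase receptor IGF1R, which signals through insulin receptor substrates to PI3 kinase and AKT. IGF2R, also the cation-independent mannose 6-phosphate receptor, takes up IGF2 and carries it to lysosomes. Binding proteins hold most IGF outside cells; some block access to the receptor, some keep IGF near the cell surface, and proteases such as pappalysin-1 cut them and free the ligand. Stromal fibroblasts are a main source of these secreted factors in the intestinal wall.

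The cultures carried markers of fibroblasts and of smooth muscle or pericytes: 12 of 12 and 10 of 10 reached 1 FPKM (fragments per kilobase of transcript, scaled to library depth) in at least 3 libraries. So did 2 of 10 epithelial, 6 of 10 endothelial and 8 of 12 leukocyte markers. The same held for 2 of 10 markers of enteric glia and neurons, 1 of 6 mesothelial markers and 4 of 5 of interstitial cells of Cajal. No list had a marker at 0 in every library. Replicate 1 of both knockout groups stood apart in summed epithelial markers, at 66.1 FPKM in Vehicle_Tgfbr2KO and 29.5 FPKM in TGFB1_KO, against 3.24 to 11.7 FPKM in the other libraries. Krt8, Krt18 and Krt19 supplied most of both sums, while Epcam was at 1.02 and 0.326 FPKM. Summed mesothelial markers, a list that also holds Krt19, were highest in the same libraries, at 19.8 and 10.7 FPKM, against 1.60 to 9.91 FPKM elsewhere. The Vehicle libraries held Tgfbr2 at 38.2 to 78.8 FPKM, and the Vehicle_Tgfbr2KO libraries held it at 27.01 to 41.9 FPKM. With TGFB1, Tgfbr2 was at 56.5 to 74.6 FPKM in TGFB1 and at 31.6 to 62.4 FPKM in TGFB1_KO. Each knockout library was below the intact library of its treatment and replicate number. The ranges overlapped in both treatments, so the level of Tgfbr2 alone did not separate all libraries by genotype. A symbol-level value does not show whether a deleted stretch is read. Estimated relative depth was 0.742 to 0.801 in TGFB1 and 0.807 to 1.25 in the other groups, with 1 library of Vehicle as 1. In bulk cultures, fewer cells of a type and less RNA per cell cannot be told apart.

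In Vehicle cultures the binding proteins Igfbp7 and Igfbp4 stood far above the ligands and the other members. Igfbp7 averaged 1205 FPKM ± 127 (SD, n = 3) and was the gene at rank 63 of the table, and Igfbp4 averaged 464 FPKM ± 136 (SD, n = 3) at rank 166. Igf2r (26.8 FPKM), Igfbp5 (25.8), Igfbp6 (20.9) and Igf1r (19.4) followed. Neighbours in this order overlapped each other, while Igf1r was below Igfbp5 and Igf2r in every Vehicle library. Igfbp3 averaged 14.3 FPKM, Igfbp2 10.8, Igf1 10.2 and Igf2 8.33, with overlapping libraries. Igfbp1, the binding protein known from liver, was listed at 0 in all 12 libraries. These levels are per length of transcript, so genes can be set beside each other.

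**Figure D1:**
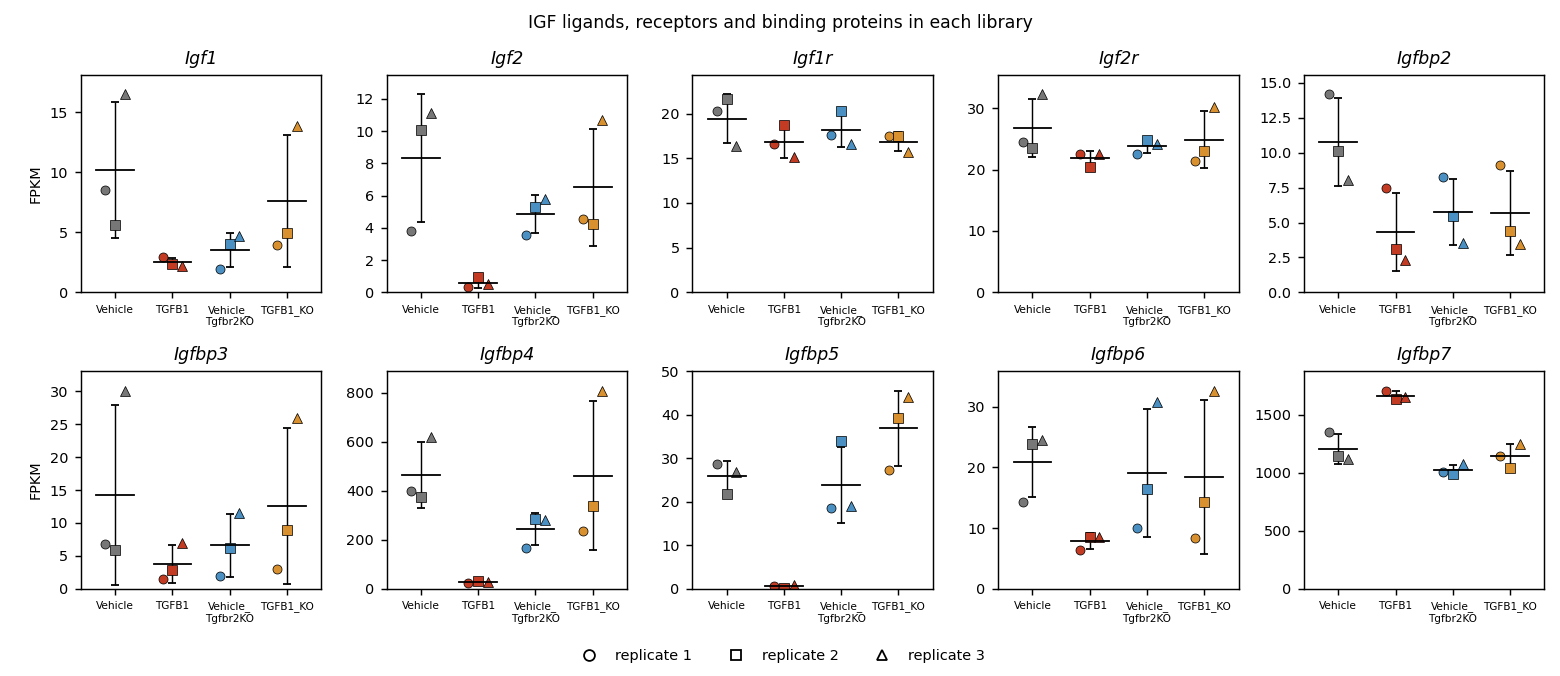
FPKM (y axis, linear, from 0) of each of the 10 genes in every library, by group (x axis); symbols mark the replicate number, horizontal lines the group mean and bars 1 SD (n = 3). The TGFB1 group has the lowest mean for 9 of the 10 genes and the highest for Igfbp7, and Igfbp4 and Igfbp5 show the widest gaps.

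With TGFB1 added to receptor-intact cultures, both ligands and the binding proteins Igfbp2, Igfbp4 and Igfbp5 fell and Igfbp7 rose. That is 5 genes lower, 1 higher and 4 not called of 10 tested, at a limma adjusted p under 0.05. Across all 12641 tested genes, 14.6% were called lower and 17.3% higher in the same comparison. The median log2 change was -1.39 over the 10 genes and 0.02 over all tested genes. All 5 falls were of at least 1 on the log2 scale, and such falls made up 3.39% of all tested genes. Values did not overlap between the groups for Igf1, Igf2, Igf2r, Igfbp2, Igfbp4, Igfbp5 and Igfbp6, all lower, beside 21.8% of all tested genes that were lower without overlap. Changes are on the log2(FPKM + 1) scale throughout, which understates those of genes under about 1 FPKM. The labels number the libraries 1 to 3 in each group, and the library names of the replicates end in the same 3 identifiers, in the same order, in all 4 groups (V_31, V_121 and V_123 in Vehicle), across treatment and genotype. Same-numbered libraries deviated together within each genotype. With that number as a block, 8 of the genes were called lower and 1 higher, beside 18.7% and 22.7% of all tested genes.

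Igf1, the ligand also known as somatomedin C, was at 8.50, 5.61 and 16.5 FPKM in Vehicle and at 2.95, 2.37 and 2.22 FPKM in TGFB1. Every TGFB1 library lay below every Vehicle library, and the Vehicle libraries differed widely among themselves. The ratio of group means was 4.06-fold lower, and the log2 change was -1.56 (SE 0.44, limma adjusted p = 0.0223). Without Vehicle replicate 3 the adjusted p was 0.0770, without TGFB1 replicate 2 it was 0.0579 and without TGFB1 replicate 3 it was 0.0666. The call was lost in each of these fits, with log2 changes of -1.18, -1.53 and -1.50. In the same fits calls over all tested genes went from 4033 to 3424, 3431 and 3044. With the replicate block the limma adjusted p of Igf1 was 0.00688. Macrophages also make Igf1. The summed FPKM of 12 leukocyte markers was 417, 37.8 and 601 in Vehicle and 237, 14.0 and 283 in TGFB1. Lyz2 alone supplied most of each sum, at 372, 24.8 and 547 FPKM in Vehicle and 214, 8.28 and 250 FPKM in TGFB1. Other markers differed in direction: Csf1r averaged 5.15 FPKM in Vehicle and 5.59 in TGFB1, and Cd68 10.1 and 3.84. The median log2 change of the 8 tested markers was -0.75, against 0.02 over all tested genes. Limma called 1 of them lower and 0 higher, beside 14.6% and 17.3% of all tested genes. With the replicate block 2 were called lower and 0 higher, beside 18.7% and 22.7%. The part of leukocytes in the Igf1 level was not tested. Vehicle replicate 2, with the lowest marker sum of its group, also had its lowest Igf1, while TGFB1 replicate 2 did not.

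Igf2, the ligand of both receptors and an imprinted gene, was at 3.81, 10.1 and 11.1 FPKM in Vehicle and at 0.325, 0.977 and 0.512 FPKM in TGFB1. All 3 TGFB1 libraries were under 1 FPKM and none of the Vehicle libraries was. The ratio of group means was 13.8-fold lower, and the log2 change was -2.45 (SE 0.39, limma adjusted p = 0.00109). Igf2 shares its locus with Igf2os, at up to 0.158 FPKM, and Mir483, listed at 0 in all libraries; whether counting used strand is not given in the sources used here. H19, the non-coding RNA transcribed from the other parental copy of the Igf2 locus, was at 1.79, 7.94 and 39.3 FPKM in Vehicle and at 0.264, 0.424 and 0.585 FPKM in TGFB1. Its level also fell, by 2.82 on the log2 scale (SE 0.95, limma adjusted p = 0.0446), from Vehicle libraries that were far apart.

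Neither receptor was called in the fit without the block. Igf1r, the signalling receptor, was at 20.3, 21.6 and 16.4 FPKM in Vehicle and at 16.6, 18.7 and 15.1 FPKM in TGFB1. The groups overlapped, although each TGFB1 library was below the Vehicle library of its number. The log2 change was -0.19 (95% interval -0.45 to 0.06, limma adjusted p = 0.227), and with the replicate block the adjusted p was 0.0258. Igf2r, the scavenger of IGF2, was at 24.6, 23.5 and 32.3 FPKM in Vehicle and at 22.5, 20.5 and 22.6 FPKM in TGFB1. Its groups did not overlap, but the gap was narrow next to the spread in Vehicle. The log2 change was -0.27 (95% interval -0.57 to 0.03, limma adjusted p = 0.162), and 0.0632 with the replicate block. The locus of Igf2r holds the antisense RNA Airn, at 0.956 to 3.76 FPKM, which could share reads with it.

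The promoters of Igfbp4, Igfbp5 and Igfbp7 are shown because the first pair had the largest falls of the family and the third was the single member that rose. Each run is the 250 bases before the start that RefSeq gives on GRCm38.p6, a later build than the mm9 named in the submitters' processing notes, written 5′ to 3′ on the gene's strand. Capitals mark any match to the motifs searched, and the only match was the TATA box of Igfbp4.
Igfbp4 (chr11:99040994-99041243, plus strand): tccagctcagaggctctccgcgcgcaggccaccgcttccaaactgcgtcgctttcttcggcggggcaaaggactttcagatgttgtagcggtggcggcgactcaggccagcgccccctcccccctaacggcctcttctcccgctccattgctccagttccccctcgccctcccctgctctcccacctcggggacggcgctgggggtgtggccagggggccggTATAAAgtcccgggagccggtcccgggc
Igfbp5 (chr1:72874866-72875115, minus strand): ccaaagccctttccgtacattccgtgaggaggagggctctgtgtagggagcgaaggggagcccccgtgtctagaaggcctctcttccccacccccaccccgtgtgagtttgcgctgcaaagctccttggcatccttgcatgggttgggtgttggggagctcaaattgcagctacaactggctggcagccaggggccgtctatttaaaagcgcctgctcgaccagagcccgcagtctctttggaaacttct
Igfbp7 (chr5:77408046-77408295, minus strand): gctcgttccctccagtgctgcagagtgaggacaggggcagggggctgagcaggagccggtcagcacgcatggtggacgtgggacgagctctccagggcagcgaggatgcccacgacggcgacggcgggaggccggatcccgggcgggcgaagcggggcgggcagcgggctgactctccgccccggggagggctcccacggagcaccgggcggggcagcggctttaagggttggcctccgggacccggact

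The motifs were searched on both strands and set beside all 32851 RefSeq promoters of this length. The SMAD box, with the letters CAGAC, is in 42.2% of these promoters. The GC-rich SMAD motif, with the letters GGCGCC, is in 9.59% of them. The AP-1 site, with the letters TGACTCA, is in 4.46% of them, and the TATA box, with the letters TATAAA, is in 12.4%. No motif contains another. The first base of the Igfbp4 TATA box lies 28 bases before the start. GC content was 69.2% for Igfbp4, 58.8% for Igfbp5 and 74% for Igfbp7, against a median of 52.4% over all promoters. The absence of a match says only that these letters are not in these windows.

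Igfbp5, a binding protein that also attaches to extracellular matrix, had the largest fall of the family. It was at 28.8, 21.9 and 26.9 FPKM in Vehicle and at 0.734, 0.255 and 0.758 FPKM in TGFB1. The Vehicle libraries were close together and the TGFB1 libraries were all under 1 FPKM. The ratio of group means was 44.4-fold lower, and the log2 change was -4.09 (SE 0.25, limma adjusted p = 3.66e-06), the eighth largest fall of all tested genes. With a pseudocount of 0.1 in place of 1, the change of Igfbp5 was -5.35. RefSeq places Igfbp5 beside Igfbp2 on chromosome 1, with no protein-coding gene between them.

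Igfbp4, a soluble inhibitor of IGF action and a known substrate of pappalysin-1, carried the largest loss in absolute level. It was at 399.9, 373 and 620 FPKM in Vehicle and at 23.2, 31.1 and 29.5 FPKM in TGFB1. The highest TGFB1 library was far below the lowest Vehicle library, and Vehicle replicate 3 stood above the other two. The ratio of group means was 16.6-fold lower, and the log2 change was -3.98 (SE 0.40, limma adjusted p = 6.53e-05). By mean FPKM, Igfbp4 moved from rank 166 of the table in Vehicle to rank 3092 in TGFB1. Pdgfra, the gene behind the reporter that marks these cells, was at 137, 125 and 165 FPKM in Vehicle and at 13.8, 19.7 and 12.1 FPKM in TGFB1. The summed FPKM of 12 fibroblast markers was 6731, 5922 and 10537 in Vehicle and 8503, 9013 and 9450 in TGFB1. Col1a1, Col1a2 and Vim supplied most of this sum in all 12 libraries. The median log2 change of the 12 markers was -0.73, with 4 members called lower and 1 higher, and 6 and 1 with the replicate block. The summed FPKM of 10 smooth muscle and pericyte markers was 6486, 6029 and 5249.5 in Vehicle and 9356, 8286 and 8307 in TGFB1, without overlap, with 4 members called higher and 1 lower, and 6 and 2 with the replicate block. The part of cell make-up in the fall of Igfbp4 was not tested.

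Igfbp7 was the single member that rose. It encodes a secreted protein that binds IGFs weakly and is deposited in matrix. It was at 1350.2, 1145 and 1119 FPKM in Vehicle and at 1705, 1633 and 1647 FPKM in TGFB1. Every TGFB1 library lay above every Vehicle library, and the TGFB1 libraries were close together. The ratio of means was 1.38-fold higher, and the log2 change was 0.47 (SE 0.08, limma adjusted p = 0.00219). Non-overlapping higher values were found for 26.1% of all tested genes in this comparison. Polr2b, which overlaps the Igfbp7 locus, was at 17.9 to 21.3 FPKM across all libraries.

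Igfbp2, Igfbp3 and Igfbp6 were lower in TGFB1 in each same-numbered pair, with large differences between the numbers. Igfbp2, a binding protein abundant in fetal tissue, was at 14.2, 10.1 and 8.03 FPKM in Vehicle and at 7.505, 3.11 and 2.35 FPKM in TGFB1. The highest TGFB1 library was only just below the lowest Vehicle library. The ratio of means was 2.49-fold lower, and the log2 change was -1.23 (SE 0.41, limma adjusted p = 0.0435). Its call without the block was lost when any of several single libraries was left out. The adjusted p was 0.134, 0.0891 and 0.0508 without Vehicle replicates 1, 2 and 3. It was 0.120 and 0.150 without TGFB1 replicates 2 and 3. It was 0.0607 without Vehicle_Tgfbr2KO replicate 2 and 0.0573 without TGFB1_KO replicate 2, which enter through the shared estimate of the spread. With the replicate block, the adjusted p was 0.000110.

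Igfbp3, the main IGF carrier of blood plasma, was at 6.87, 5.93 and 30.1 FPKM in Vehicle and at 1.44, 2.87 and 6.94 FPKM in TGFB1. Replicate 3 was the highest in both groups, and TGFB1 replicate 3 lay above the lower pair of Vehicle libraries, so the groups overlapped. The log2 change was -1.50 (95% interval -3.32 to 0.32, limma adjusted p = 0.196), and with the replicate block the adjusted p was 0.00348. Igfbp6, which prefers IGF2 over IGF1, was at 14.2, 23.9 and 24.5 FPKM in Vehicle and at 6.33, 8.60 and 8.55 FPKM in TGFB1. The groups did not overlap, and replicate 1 was the lowest in both. The log2 change was -1.28 (SE 0.47, limma adjusted p = 0.0612), and with the replicate block the adjusted p was 0.00417. The call of Igfbp6 without the block turned on libraries outside the comparison. Fitted on the compared groups alone, its adjusted p was 0.00833. Fitted on all groups, it was 0.0498 and 0.0454 without Vehicle_Tgfbr2KO replicates 1 and 3, and 0.0375 and 0.0223 without TGFB1_KO replicates 1 and 3.

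The summed FPKM of the binding protein transcripts was alike in Vehicle and TGFB1, while their make-up was not. Summed FPKM of Igfbp2 to Igfbp7 was 1741 ± 140 (SD, n = 3) in Vehicle and 1706 ± 33.9 (SD, n = 3) in TGFB1, a difference smaller than the spread. Library totals of FPKM were higher in TGFB1 than in Vehicle. As a share of the library total, the sum was 0.313% to 0.363% in Vehicle and 0.298% to 0.309% in TGFB1, lower without overlap. Igfbp7 supplied 61.2% to 74.4% of that sum in Vehicle and 97.2% to 97.8% in TGFB1. Igfbp4 supplied 22.05% to 33.9% in Vehicle and 1.33% to 1.85% in TGFB1. Without Igfbp7 the sum was 536 FPKM ± 151 in Vehicle and 44.4 FPKM ± 4.64 in TGFB1 (SD, n = 3 each). Igf1 and Igf2 together were at 18.5 FPKM ± 8.03 in Vehicle and 3.12 FPKM ± 0.340 in TGFB1 (SD, n = 3 each). The summed binding proteins, Igfbp7 included, per summed ligand were thus 66.3 to 147 in Vehicle and 501 to 621 in TGFB1. The ratio rose as the summed ligands fell and the sum with Igfbp7 stayed alike. It rose only with Igfbp7 in the sum. With Igfbp7 left out, the binding proteins fell by a larger factor than the ligands. Their ratio to the ligands was then lower in every TGFB1 library than in every Vehicle library. These are ratios of transcripts, and protein was not measured in these libraries.

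**Figure D2:**
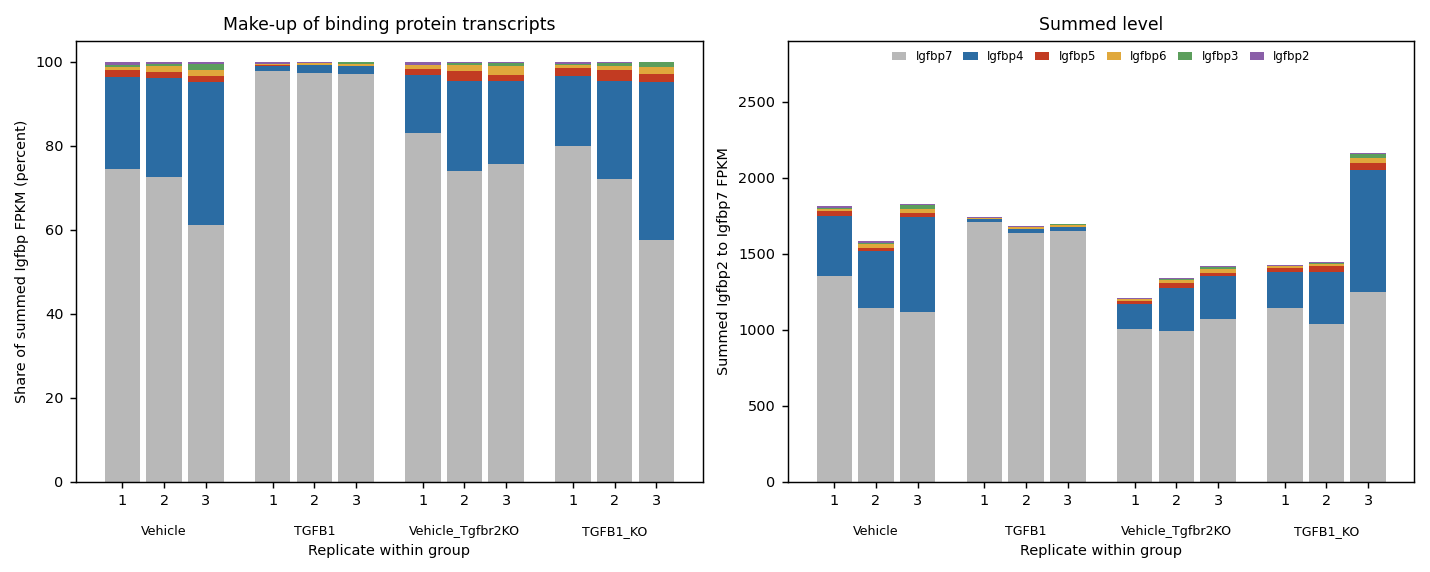
Share of the summed FPKM of Igfbp2 to Igfbp7 supplied by each gene (left, percent) and the summed FPKM itself (right), as stacked bars for each library, by group and replicate. Igfbp7 takes 97.2% to 97.8% in the TGFB1 libraries and 57.6% to 83.02% in the 9 others, while the TGFB1 sums lie within the range of the Vehicle sums.

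In the knockout cultures no gene of the family was called for TGFB1. Of 10 tested, 0 passed an adjusted p under 0.05 in limma, beside 0% of all 12641 genes. At an unadjusted p under 0.05 there was 1 of the 10, Igfbp5, beside 5.92% of all genes. All 10 genes overlapped between TGFB1_KO and Vehicle_Tgfbr2KO, while 6.6% of all tested genes were higher and 5.23% lower without overlap, and their adjusted p-values ran from 0.738 to 0.976.

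Igf1 was at 1.98, 3.99 and 4.69 FPKM in Vehicle_Tgfbr2KO and at 3.95, 4.93 and 13.9 FPKM in TGFB1_KO. Igf2 was at 3.52, 5.27 and 5.803 FPKM and then at 4.57, 4.23 and 10.7 FPKM in the same order. For both ligands, replicate 3 of TGFB1_KO stood above the other 5 knockout libraries. The log2 change was 0.79 for Igf1 (95% interval -0.20 to 1.78) and 0.27 for Igf2 (95% interval -0.59 to 1.14). Their intervals lie above the falls of -1.56 and -2.45 seen in intact cultures. Leukocyte marker sums were 344, 458 and 303 FPKM in Vehicle_Tgfbr2KO and 290, 378 and 186 FPKM in TGFB1_KO. S100a8 made up a large share of them, and without it the sums were 125, 337 and 264 FPKM and 101, 253 and 176 FPKM. The library with the lowest sum in each group changed from replicate 3 to replicate 1 when that gene was left out, and the part of leukocytes in the Igf1 level was not tested here either.

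The receptors stayed within a narrow band in knockout cultures. Igf1r was at 17.6, 20.2 and 16.6 FPKM in Vehicle_Tgfbr2KO and at 17.4, 17.5 and 15.7 FPKM in TGFB1_KO, a log2 change of -0.10 (95% interval -0.35 to 0.15). Igf2r was at 22.5, 24.8 and 24.1 FPKM with vehicle and at 21.4, 23.03 and 30.2 FPKM with TGFB1, a log2 change of 0.05 (95% interval -0.25 to 0.35). Neither gene had a group mean under 16.8 FPKM in any of the 4 groups.

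Igfbp4 and Igfbp5 stayed high in knockout cultures given TGFB1. Igfbp4 was at 166, 285 and 279.6 FPKM in Vehicle_Tgfbr2KO and at 238, 338 and 808 FPKM in TGFB1_KO, with a log2 change of 0.76 (95% interval -0.13 to 1.65). The value of 808 FPKM, in TGFB1_KO replicate 3, was the highest of all 12 libraries. The fibroblast marker sum of that library was 8224, against 3087 to 4836 in the other 5 knockout libraries, and its part in the Igfbp4 level was not tested. Igfbp5 was at 18.6, 33.9 and 18.99 FPKM in Vehicle_Tgfbr2KO and at 27.2, 39.3 and 44.0 FPKM in TGFB1_KO. TGFB1_KO was higher in each same-numbered pair, and the log2 change was 0.63 (95% interval 0.08 to 1.18, limma adjusted p = 0.738).

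The remaining binding proteins differed more between replicate numbers than between the knockout groups. Igfbp2 was at 8.28, 5.46 and 3.52 FPKM in Vehicle_Tgfbr2KO and at 9.11, 4.42 and 3.47 FPKM in TGFB1_KO, with a log2 change of -0.05. Igfbp3 was at 1.98, 6.22 and 11.6 FPKM with vehicle and at 2.98, 8.86 and 25.9 FPKM with TGFB1, with a log2 change of 0.66 and a 95% interval from -1.17 to 2.48. Igfbp6 was at 10.0, 16.5 and 30.7 FPKM with vehicle and at 8.30, 14.3 and 32.7 FPKM with TGFB1, with a log2 change of -0.12. For Igfbp2, Igfbp3 and Igfbp6 the order of the replicates was the same in both knockout groups. Igfbp7 was at 1003, 989.7 and 1071 FPKM in Vehicle_Tgfbr2KO and at 1143, 1039.95 and 1244 FPKM in TGFB1_KO. It was higher with TGFB1 in 3 of 3 same-numbered pairs, and the log2 change was 0.16 (95% interval -0.03 to 0.34).

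**Figure D3:**
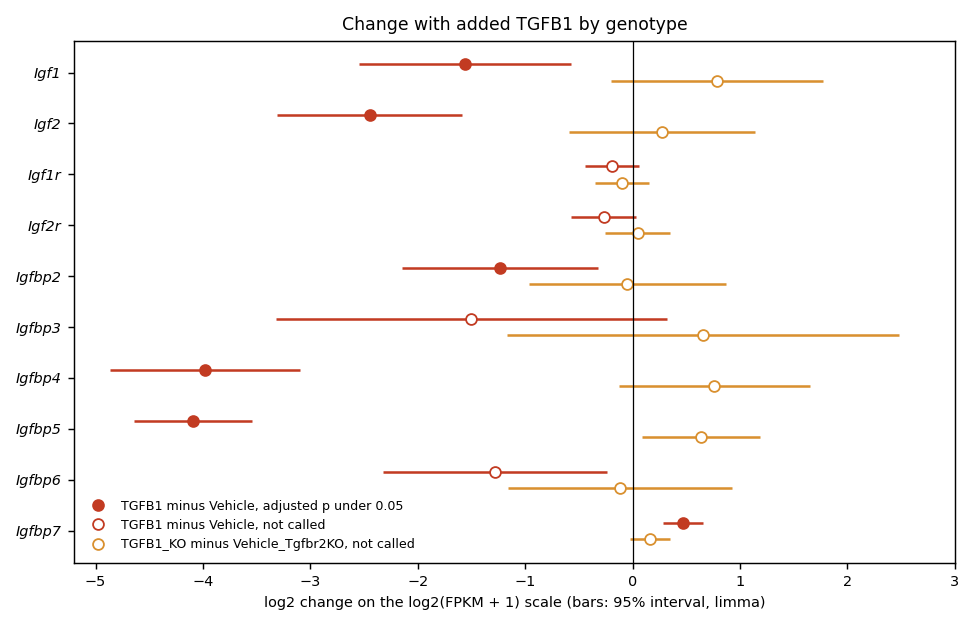
Log2 change on the log2(FPKM + 1) scale (x axis) of each gene with added TGFB1, in intact cultures (red) and in knockout cultures (orange), with 95% limma intervals as bars; filled points passed an adjusted p under 0.05. In intact cultures the 6 filled points run from -4.09 for Igfbp5 to 0.47 for Igfbp7, and none is filled in knockout cultures, where the changes run from -0.12 to 0.79.

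The difference between the genotypes in the TGFB1 change was tested as an interaction, the change in knockout minus the change in intact cultures. It was called for Igf1, Igf2, Igfbp4 and Igfbp5, all higher, which is 4 of 10 genes beside 8.38% of all tested genes called higher and 9.26% lower. The interaction was 4.74 for Igfbp4 (SE 0.57, limma adjusted p = 0.000520), the ninth largest positive value of all tested genes. For Igfbp5 it was 4.73 (SE 0.35, limma adjusted p = 4.99e-05), the tenth largest. For Igf2 it was 2.72 (SE 0.55, limma adjusted p = 0.00809). For Igf1 it was 2.35 (SE 0.63, limma adjusted p = 0.0285). The Igf1 call was lost without Vehicle replicate 3 (adjusted p = 0.0551), without TGFB1 replicate 1 (0.0531), 2 (0.0567) or 3 (0.0622), and without Vehicle_Tgfbr2KO replicate 1 (0.0688) or 2 (0.0504).

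The other binding proteins depended on whether the replicate number was in the fit. The interaction was 1.19 for Igfbp2, 2.16 for Igfbp3 and 1.16 for Igfbp6, with limma adjusted p-values of 0.189, 0.229 and 0.256. With the replicate block these became 0.00162, 0.00548 and 0.0419, and the family count rose to 7 of 10 beside 13.6% of all genes called higher. For Igfbp7 the interaction was -0.31 (limma adjusted p = 0.0992), 0.0545 with the replicate block and 0.0348 without Vehicle replicate 1. A block by number within each genotype, chosen after seeing the data, gave 0.0285 for Igfbp7. Thus the rise of Igfbp7 in intact cultures was not shown to differ from the 0.16 of knockout cultures in the fit without the block. The receptors had interactions of 0.09 for Igf1r and 0.32 for Igf2r, with adjusted p-values of 0.729 and 0.286.

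**Figure D4:**
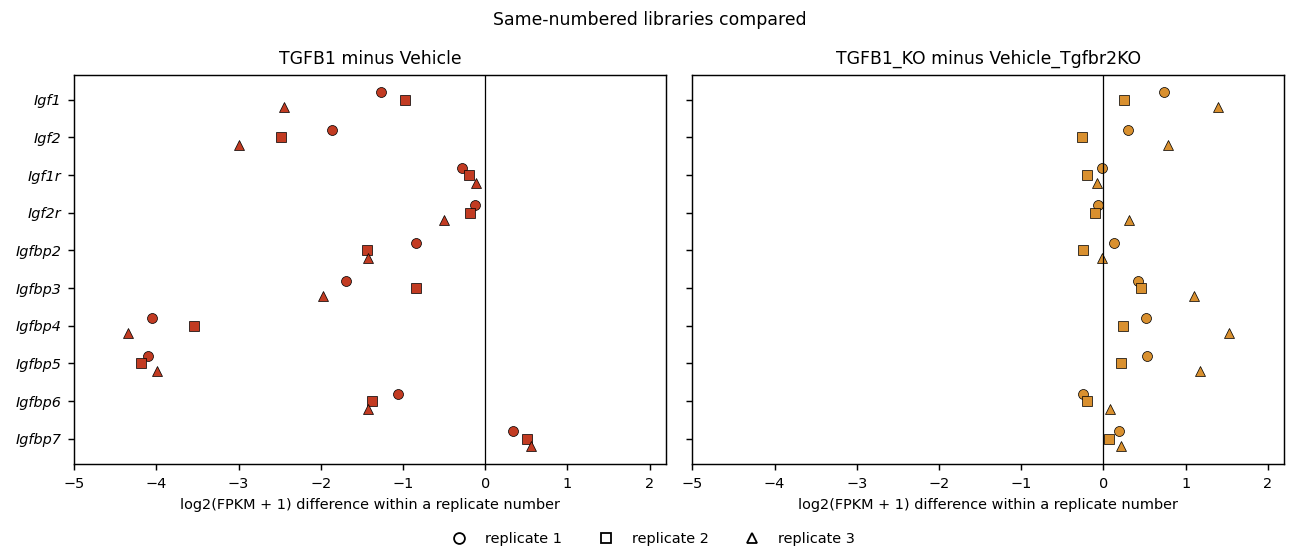
Difference in log2(FPKM + 1) between same-numbered libraries (x axis) for each gene, TGFB1 minus Vehicle (left) and TGFB1_KO minus Vehicle_Tgfbr2KO (right); symbols give the replicate number. On the left 9 genes are negative in 3 of 3 pairs and Igfbp7 is positive in 3 of 3; on the right, replicate 3 is the most positive symbol for Igf1, Igf2, Igf2r, Igfbp3, Igfbp4, Igfbp5, Igfbp6 and Igfbp7.

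Between the vehicle groups no member was called. All 10 changes for Vehicle_Tgfbr2KO minus Vehicle were negative, 0 of 10 passed the adjusted threshold in limma, and 1.24% of all tested genes did. At an unadjusted p under 0.05 there were 3 of 10, beside 21.9% of all genes. Igf1 showed the largest change, at -1.23 on the log2 scale (adjusted p = 0.158), followed by Igfbp4 at -0.93 (0.209), Igfbp3 at -0.88 (0.544) and Igfbp2 at -0.83 (0.267), all by limma. The groups did not overlap for Igf1, Igfbp4 and Igfbp7, which were lower in knockout, and 15.6% of all tested genes were lower without overlap. Igfbp7 was at 989.7 to 1071 FPKM in Vehicle_Tgfbr2KO against 1119 to 1350.2 FPKM in Vehicle, a log2 change of -0.23 (limma adjusted p = 0.157). The summed binding proteins were 1320 FPKM ± 104 (SD, n = 3) in Vehicle_Tgfbr2KO, below each Vehicle library. Fibroblast marker sums were also lower, at 3087 to 4524 against 5922 to 10537 in Vehicle. Of the 12 markers limma called 0, with a median log2 change of -0.96, and their part in these levels was not tested.

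When TGFB1 was present in both genotypes, the knockout cultures kept Igf2, Igfbp4 and Igfbp5 high and Igfbp7 low. TGFB1_KO minus TGFB1 gave 3 genes higher and 1 lower of 10, beside 15.6% and 18.3% of all tested genes. The ratio of group means was 63.3-fold higher for Igfbp5 (log2 change 4.57, limma adjusted p = 9.83e-07), 16.5-fold for Igfbp4 (3.81, 5.87e-05) and 10.7-fold for Igf2 (2.14, 0.00188). Igfbp7 fell by 0.54 on the log2 scale (limma adjusted p = 0.000705). Igf1 was higher in each TGFB1_KO library than in any TGFB1 library, with a log2 change of 1.12 (limma adjusted p = 0.0779, and 0.0445 without TGFB1_KO replicate 1). The same omission brought Igfbp6, at 0.94, to an adjusted p of 0.0450. This comparison shares its TGFB1 libraries with the one in intact cultures and its TGFB1_KO libraries with the one in knockout cultures.

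Several members followed the replicate number in all 4 groups. Igfbp2 was highest in replicate 1 and lowest in replicate 3 in 4 of 4 groups. Igfbp3 was highest in replicate 3 in 4 of 4 groups, and Igf1r was highest in replicate 2 and lowest in replicate 3 in 4 of 4. Igfbp6 was lowest in replicate 1 in 4 of 4 groups. In TGFB1_KO 8 of the 10 genes were highest in replicate 3, and in Vehicle 6 of the 10 were. Counts of this kind were made for the 10 genes alone, so whether they are particular to the family was not tested. What the identifiers in the library names stand for is not given in the labels.

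Proteases that cut the binding proteins, and the inhibitors of those proteases, were also among the genes that responded. Of 14 genes on this list 11 were tested, and with TGFB1 in intact cultures 2 rose and 5 fell, with a median log2 change of -0.44 against 0.02 over all genes. Of all tested genes, 17.3% rose and 14.6% fell. With the replicate block 3 of the list rose and 5 fell, beside 22.7% and 18.7%; the added call was Htra1 (log2 change 0.99, limma adjusted p = 0.0592 without the block and 0.000869 with it), a secreted serine protease named after its values were seen. Pappa encodes pappalysin-1, the protease of IGFBP4 and IGFBP5. It was at 5.43, 3.49 and 9.94 FPKM in Vehicle and at 43.3, 42.8 and 47.6 FPKM in TGFB1. Every TGFB1 library was far above every Vehicle library. The log2 change was 2.74 (SE 0.35, limma adjusted p = 0.000279), opposite in sign to that of its substrates Igfbp4 and Igfbp5. In knockout cultures Pappa was at 1.22, 2.53 and 2.39 FPKM with vehicle and at 2.14, 4.21 and 6.03 FPKM with TGFB1, and its interaction was -2.04 (limma adjusted p = 0.0181).

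Stc1 and Stc2 encode stanniocalcins, which inhibit pappalysins. Stc1 was at 7.49, 10.5 and 9.57 FPKM in Vehicle and at 0.782, 1.56 and 1.25 FPKM in TGFB1. Its groups were far apart, and the log2 change was -2.22 (SE 0.19, limma adjusted p = 2.22e-05), with an interaction of 2.45 (0.000271). Stc2 was at 5.34, 5.73 and 8.11 FPKM in Vehicle and at 1.22, 1.47 and 1.62 FPKM in TGFB1, a log2 change of -1.59 (limma adjusted p = 0.0155). Its interaction was 1.91 (limma adjusted p = 0.0498), from TGFB1_KO libraries as far apart as 3.97 and 16.3 FPKM. Adamts1, a secreted matrix protease, was at 13.2, 18.5 and 13.6 FPKM in Vehicle and at 4.16, 5.196 and 5.09 FPKM in TGFB1, a log2 change of -1.46 (limma adjusted p = 1.80e-05). In knockout cultures limma called no gene of this list for TGFB1, as it called 0 of all 12641 tested genes.

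**Figure D5:**
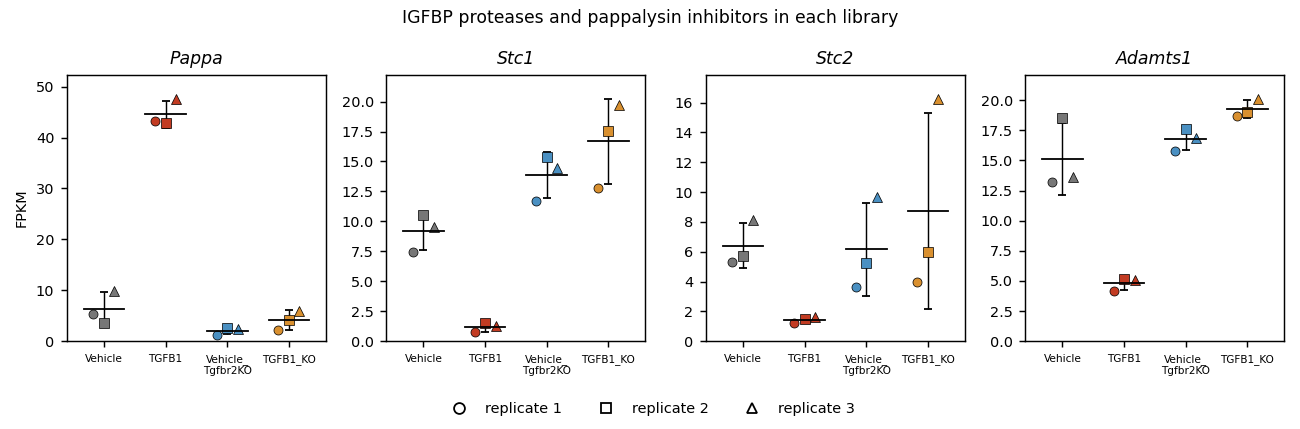
FPKM (y axis, linear, from 0) of Pappa, its inhibitors Stc1 and Stc2, and Adamts1 in every library, by group; symbols mark the replicate number, lines the mean and bars 1 SD (n = 3). Pappa sits at 42.8 to 47.6 FPKM in TGFB1 and under 10 FPKM elsewhere, while Stc1, Stc2 and Adamts1 are lowest in TGFB1.

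Other components of the system gave fewer calls. Of 9 further IGF system genes only 3 were expressed enough to be tested, and H19 was the 1 called with TGFB1 in intact cultures. Insr, the insulin receptor, averaged between 5.84 and 6.06 FPKM in the 4 groups, with a log2 change of -0.05 in TGFB1 (limma adjusted p = 0.681). Among 29 tested genes of insulin and IGF receptor signalling, 5 rose and 3 fell, with a median of 0.07, and with the replicate block 9 rose and 4 fell. These counts stand beside 17.3% higher and 14.6% lower of all tested genes, and 22.7% and 18.7% with the block. Grb14, an adaptor that inhibits the insulin receptor, fell from a mean of 13.9 to 5.59 FPKM (log2 change -1.16, limma adjusted p = 0.000820). Pik3r1, the regulatory subunit of PI3 kinase, fell by 0.55 on the log2 scale and Sh2b2, an adaptor of the insulin receptor, fell by 0.50 (limma adjusted p = 0.000926 and 0.0200). Eif4ebp1, the translation inhibitor downstream of mTOR, rose from 191 to 268 FPKM, a log2 change of 0.49 (limma adjusted p = 0.000659). The docking proteins Irs1 and Irs2 were not called with TGFB1, at -0.16 and -0.13 (limma adjusted p = 0.269 and 0.132). Irs2 was called between the vehicle groups, lower in knockout by a log2 change of -0.29 (limma adjusted p = 0.0480). It was the 1 call among the 29 tested, beside 1.24% of all tested genes. Limma called 0 of all tested genes in this comparison with only the compared groups fitted, without Vehicle replicate 3, or without Vehicle_Tgfbr2KO replicate 1. Grb10, an imprinted adaptor of the IGF1 receptor, had a log2 change of -0.82 with TGFB1 (limma adjusted p = 0.154, and 0.00989 with the replicate block).

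Among 17 tested FOXO factors and FOXO-responsive genes, 2 rose and 2 fell with TGFB1 in intact cultures, with a median log2 change of -0.05, and with the replicate block 5 rose and 2 fell. The counts without the block are near the shares of all tested genes, 17.3% higher and 14.6% lower; with the block those shares were 22.7% and 18.7%. Fbxo32, the ubiquitin ligase atrogin-1, averaged 5.61 FPKM in Vehicle and 16.1 in TGFB1, and Gadd45a, a growth arrest gene, 33.4 and 84.6. Sod2, mitochondrial superoxide dismutase, averaged 34.2 and 12.9 FPKM, and the transcription factor gene Klf15 2.49 and 0.536. The log2 changes were 1.38, 1.34, -1.34 and -1.10, with limma adjusted p-values from 0.000194 to 0.0274. Of 16 tested imprinted growth genes 2 rose and 4 fell, and with the replicate block 2 rose and 9 fell, beside the same shares. Among the calls without the block, H19 had the largest fall, followed by the zinc finger genes Peg3 (-1.39, limma adjusted p = 0.0444) and Plagl1 (-0.98, 0.0343), while Gatm, of creatine synthesis, rose by 0.99 (3.15e-05). In TGFB1_KO minus Vehicle_Tgfbr2KO, where limma called 0 of all 12641 tested genes, these lists had no call either.

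The genes most like each member over the 12 libraries were found by the root mean square difference of centred log2(FPKM + 1) values, for members whose group means spanned at least 1. Igfbp4 was closest to Rasl11a (0.22), Spon2 (0.25) and Svep1 (0.25). Igfbp5 was closest to Fgf10 (0.32), Prelp (0.39) and Lgi2 (0.42), and Igf2 to Lpl (0.30), Socs3 (0.34) and Rspo3 (0.35). Each of these 9 genes had its lowest group mean in TGFB1, which follows from choosing them by likeness to these members. Igf1 was closest to Pde1a (0.18), Fam13c (0.24) and Fzd1 (0.28), and Igfbp6 to Dnm1 (0.25), Bhlhe22 (0.28) and Map3k8 (0.28). Igfbp3 was closest to G0s2 (0.44), Col24a1 (0.45) and Cpxm1 (0.46), and Igfbp2 to Alkal1 (0.37), Nnat (0.38) and Hspa1b (0.40). Igfbp2 and Igfbp3 thus had more distant neighbours than Igf1, at 0.37 and 0.44 against 0.18 for the nearest gene. Igf1r, Igf2r and Igfbp7 had spans of 0.19, 0.27 and 0.70 and were given no neighbours.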

How the data were processed

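Poly-A RNA libraries of 12 cultures were sequenced, per the labels' protocols. The authors deposited FPKM per gene symbol; the submitters' processing notes name kallisto 0.46.1, DESeq2 1.40.1 and the build mm9, and how the FPKM values were made and scaled is not given in the sources used here. Read counts were not used, so absolute depth is unknown; relative depth was estimated from the lowest FPKM steps.

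Values were taken as log2(FPKM + 1). The 12641 genes that reached 1 FPKM in 3 or more libraries, all 10 members among them, were fitted with limma 3.58.1 in R 4.3.3, over 4 group means and all 12 libraries (8 residual degrees of freedom, eBayes with trend). P-values were adjusted by Benjamini and Hochberg over all tested genes, with a threshold of 0.05, two-sided. The median SE of a log2 change was 0.109, with a 95% interval reaching 0.242 to either side. The fit was tested on simulated data. Values, ratios and figures were made with pandas 2.3.3, numpy 2.4.6 and matplotlib 3.10.9 under Python 3.11.15.

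The labels number replicates 1 to 3 in every group. Each library's deviation from its group mean, over genes, correlated with that of its number in the other treatment (0.391, 0.445 and 0.408 in intact cultures; 0.588, 0.227 and 0.529 in knockout cultures), so blocked values of members are given beside those comparisons and the interaction where a call changed, and blocked list counts for TGFB1 in intact cultures. Between genotypes they did so less (0.336, -0.0867 and 0.412 with vehicle; 0.337, 0.00945 and 0.276 with TGFB1), so blocked values across genotypes stand only with the alternatives. The members, gene lists and the rule for named genes (all members, up to 4 called genes of each list by size of change with TGFB1, some genes of interest whatever they did, and the 3 nearest genes with at least 5 FPKM in some group) were chosen with earlier results of these data known. The neighbours of a member are a description with no test. Alternatives were pseudocounts, filters, scalings, the variance trend, the libraries fitted, the replicate block and leaving libraries out. Promoters came from RefSeq tables of GRCm38.p6, matched by symbol for 10 of 10 members.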

Additional observations from a re-analysis of the deposited data

Results flagged for a closer look

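The TGFB1 change differed between intact and knockout cultures by a test of the difference itself for 4 genes of the family. On the log2(FPKM + 1) scale the change in knockout minus that in intact cultures was 2.35 for Igf1, 2.72 for Igf2, 4.74 for Igfbp4 and 4.73 for Igfbp5, with limma adjusted p-values of 0.0285, 0.00809, 0.000520 and 4.99e-05. In intact cultures each of the 4 was lower with TGFB1 in 3 of 3 same-numbered pairs. In knockout cultures Igf1, Igfbp4 and Igfbp5 were higher in 3 of 3 pairs and Igf2 in 2 of 3.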

How the results depend on the processing

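The number of IGF genes called for TGFB1 in intact cultures was 6, and 3 to 7 when libraries were left out, with 3 when the 4 libraries of number 2 were left out together; that omission also cut the calls over all 12641 tested genes from 4033 to 1394. The interaction count was 4, and 2 to 5 when libraries were left out, again lowest without number 2, where calls over all genes went from 2230 to 295; with the replicate block it was 7, and with a block by number within each genotype, added after seeing the data, it was 8. With the replicate block, 2 genes were called between the vehicle groups (Igf1 and Igfbp2, against 0 without it), beside 15% of all tested genes against 1.24% without it. In TGFB1_KO minus TGFB1 the block gave 8 (against 4), beside 43.2% of all tested genes against 33.9%; those numbers pair the libraries less well. Igfbp2 lost its call in intact cultures with no filter on low values (limma adjusted p = 0.0722), and Igfbp7 lost it without number 2 (0.0530). Igf2 lost its interaction call without number 2 (0.107) or 3 (0.0538), and Igf1 without number 1 (0.127) or 2 (0.136); Igf1 also lost its call in intact cultures without number 1 (0.0911) or 2 (0.103). Signs turned only in changes that were not called, when libraries were left out. In TGFB1_KO minus Vehicle_Tgfbr2KO the changes then ran from -0.10 to 0.54 for Igf2, -0.10 to 0.14 for Igf2r, -0.40 to 0.21 for Igfbp2, -0.044 to 1.33 for Igfbp3 and -0.62 to 0.31 for Igfbp6. In Vehicle_Tgfbr2KO minus Vehicle they ran from -0.54 to 0.064 for Igfbp5 and -0.62 to 0.15 for Igfbp6, and in TGFB1_KO minus TGFB1 from -0.061 to 0.085 for Igf1r. The cause of these shifts was not tested. Igfbp4, Igfbp5 and Igf2 kept their calls in intact cultures when any single library was left out and under each of the 9 other planned settings.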
